A study of Mus musculus with 16 samples.

Results

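Glycolysis breaks glucose down to pyruvate and lactate, and fructose-1,6-bisphosphatase (Fbp1) catalyses a step of the opposite route, gluconeogenesis. The genes described here are 9 glycolytic enzymes in the order of the pathway (Hk2, Pfkl, Aldoa, Tpi1, Pgk1, Pgam1, Eno1, Pkm and Ldha) and Fbp1. These genes were chosen with earlier results of these data known. Their probe sets were taken by gene symbol alone, as every probe set annotated with 1 of these symbols and no other. Of the 10 genes, 9 had such a probe set, among the 8251 genes that the array measures by such a probe set, and Eno1 is named only. The 9 measured genes had 12 probe sets, 2 each for Hk2, Aldoa and Pkm and 1 each for the other 6 genes, and all 12 were bright enough to be tested.

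The samples were mouse ileal epithelium, the cell layer lining the far end of the small intestine, dissected under a laser capture microscope. Their RNA was amplified in 2 rounds and hybridised to Affymetrix MG_U74Av2 arrays, which measure each transcript with a set of short probes near its 3′ end. By their titles, 5 arrays were of adenoma (a benign tumour), 5 of carcinoma (an invasive tumour) and 6 of WT epithelium. WT stands for wild type in common use. The labels state no tumour genotype, strain, treatment, age, tumour origin or count of animals, so the groups are known by these names alone. Nothing ties an array to an animal, and the p-values therefore measure the spread between captured samples only, which may be technical. The comparisons asked how both tumour groups differed from WT and how carcinoma differed from adenoma.

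Hexokinase 2 (Hk2) traps glucose as glucose-6-phosphate, and phosphofructokinase (Pfkl is its liver type) makes fructose-1,6-bisphosphate, the committed step. Aldolase A (Aldoa) splits this sugar, triose phosphate isomerase (Tpi1) interconverts the products, phosphoglycerate kinase 1 (Pgk1) yields ATP, and phosphoglycerate mutase 1 (Pgam1) and enolase (Eno1) lead to phosphoenolpyruvate. Pyruvate kinase (Pkm, the gene of the muscle-type M1 and M2 forms) then yields ATP and pyruvate, which lactate dehydrogenase A (Ldha) reduces to lactate. Fbp1 removes a phosphate from fructose-1,6-bisphosphate and so works against phosphofructokinase; it is best known from liver and kidney and is also made by absorptive cells of the small intestine. Many tumours use much glucose even where oxygen is present, and genes of glycolysis are classical targets of the hypoxia-inducible factors and of Myc, whose binding sites can hold the letters ACGTG.

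For that reason the stretch before the start site is shown for the genes that passed a test below (Pgam1, Pkm, Ldha and Fbp1) and, for contrast, for Pgk1, which did not. Each run is the 250 bases upstream of a RefSeq transcription start in build GRCm38.p6, written 5′ to 3′ on the strand of the gene, with ACGTG and its reverse complement CACGT in capitals. Pgam1 lies at chr19:41911621-41911870 (plus strand), Ldha at chr7:46845554-46845803 (plus strand, the 5′-most of 2 starts), Pgk1 at chrX:106186850-106187099 (plus strand) and Fbp1 at chr13:62888283-62888532 (minus strand). The 2 starts of Pkm have windows at chr9:59656326-59656575 and chr9:59656977-59657226 (plus strand).
Pgam1: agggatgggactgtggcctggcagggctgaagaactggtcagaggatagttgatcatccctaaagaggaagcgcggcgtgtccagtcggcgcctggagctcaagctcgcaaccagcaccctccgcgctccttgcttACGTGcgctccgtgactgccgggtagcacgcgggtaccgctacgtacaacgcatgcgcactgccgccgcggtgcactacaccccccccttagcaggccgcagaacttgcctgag
Pkm start 1: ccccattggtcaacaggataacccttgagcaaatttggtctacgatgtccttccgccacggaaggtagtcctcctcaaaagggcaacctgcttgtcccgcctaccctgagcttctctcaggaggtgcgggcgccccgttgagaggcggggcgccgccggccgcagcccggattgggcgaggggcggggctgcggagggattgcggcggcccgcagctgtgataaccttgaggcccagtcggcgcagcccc
Pkm start 2: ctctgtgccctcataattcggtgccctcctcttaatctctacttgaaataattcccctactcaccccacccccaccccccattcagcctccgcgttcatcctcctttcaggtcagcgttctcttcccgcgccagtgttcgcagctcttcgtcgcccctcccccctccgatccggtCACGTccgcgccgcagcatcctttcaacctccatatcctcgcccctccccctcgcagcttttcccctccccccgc
Ldha: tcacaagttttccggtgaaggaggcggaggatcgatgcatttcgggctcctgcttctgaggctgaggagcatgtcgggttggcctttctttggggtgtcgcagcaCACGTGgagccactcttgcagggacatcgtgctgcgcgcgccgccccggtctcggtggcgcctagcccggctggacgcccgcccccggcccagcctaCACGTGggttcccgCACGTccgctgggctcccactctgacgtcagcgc
Pgk1: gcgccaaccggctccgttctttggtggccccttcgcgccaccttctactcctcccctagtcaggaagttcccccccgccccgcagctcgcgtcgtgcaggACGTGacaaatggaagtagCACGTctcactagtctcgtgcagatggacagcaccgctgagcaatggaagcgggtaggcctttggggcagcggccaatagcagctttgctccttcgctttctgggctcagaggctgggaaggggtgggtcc
Fbp1: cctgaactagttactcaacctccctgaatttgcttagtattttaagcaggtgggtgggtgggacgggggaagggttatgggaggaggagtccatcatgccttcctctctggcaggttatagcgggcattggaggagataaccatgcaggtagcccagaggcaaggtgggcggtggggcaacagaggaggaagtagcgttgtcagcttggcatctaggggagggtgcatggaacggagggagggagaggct
The Ldha window held 5 matches counted on both strands, in 3 separate runs, 2 of which were the palindrome CACGTG. Pgk1 held 2 and Pgam1 1, Pkm held none at its first start and 1 at its second, and Fbp1 held none. In the 5′-most window, 4 of the 9 genes had a match (Hk2, Pgk1, Pgam1 and Ldha). Of 32851 windows of the mouse annotation, which can be several per gene, 16.6% had one. Aldoa held none at its first start and 1 in each of the windows of its other 2 starts. The string GCGTG or its reverse complement CACGC was in the 5′-most window of 2 of the 9 genes and in 28.2% of the 32851 windows. A match is a string of letters and not a bound site.

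Values are probe set signals on a linear scale, as deposited, and the trimmed mean was nearly equal on all arrays. The signal of one probe set is not compared with that of another. For tests, signals under 46.9 were raised to this floor, log2 was taken and the brightest probe set of each gene was used, which left 7455 genes. Each log2 fold change carries its standard error after the ± sign, with p-values from limma adjusted over all genes tested, and a gene passed at an adjusted p of 0.05. Several control measures of the arrays differed between the tumours and WT. For Gapdh, the glycolytic enzyme between Tpi1 and Pgk1, which has control probe sets along its transcript, the 3′ signal over the 5′ signal on the log2 scale was 5.82 ± 0.24 in adenoma, 5.70 ± 0.58 in carcinoma and 4.52 ± 0.39 in WT (SD, n = 5, 5 and 6). By exact permutation tests, the differences from WT had two-sided p = 0.00216 in adenoma and 0.00433 in carcinoma, both 0.00649 when adjusted over the 3 group pairs. The same ratio of actin, the other such control, ran the other way, at 5.87 ± 0.30 in adenoma, 6.04 ± 0.44 in carcinoma and 6.25 ± 0.17 in WT (exact p = 0.0216 and 0.297 against WT, adjusted 0.0649 and 0.445). The log2 signal of the spiked-in transcripts was 12.24 ± 0.82, 12.23 ± 0.50 and 13.74 ± 1.003 in the same order (exact p = 0.0325 and 0.0238 against WT, adjusted 0.0487 each), and 4 WT arrays (WT 1, 2, 4 and 5) lay above every tumour array. The part of these measures in the results below was not tested beyond the fits given beside each result. The epithelial markers Epcam, Cdh1, Vil1 and Krt8 were above the floor on all 16 arrays and passed in neither tumour, with Epcam at log2 12.97 ± 0.25 in adenoma, 13.10 ± 0.31 in carcinoma and 13.20 ± 0.34 in WT (SD). Of 13 epithelial genes tested 2 fell in each tumour, where 4.25% of all genes tested were called lower in adenoma and 4.9% in carcinoma. They were Cdx1 (log2 -1.56) and Tff3 (-1.52) in adenoma, and Krt20 (-1.22) and Tff3 (-1.505) in carcinoma. Cdx2 reached the floor in adenoma and in WT. Its fold changes, -0.97 ± 0.36 in adenoma and -0.38 ± 0.36 in carcinoma, did not pass. All 8 smooth muscle, 8 fibroblast and 6 endothelial markers were bright enough to test too.

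In adenoma, Pkm and Pgam1 were higher than in WT and Fbp1 was lower. Pkm rose 3.72-fold (log2 1.90 ± 0.41, adjusted p = 0.00681) and Pgam1 2.46-fold (1.30 ± 0.26, adjusted p = 0.00389). Fbp1 fell 7.27-fold (-2.86 ± 0.30, adjusted p = 4.37e-06) and ranked 22nd of 7455 genes by its p-value. Of the 8 glycolytic enzymes measured, 2 thus rose and 0 fell, where 4.02% of all genes tested were called higher and 4.25% lower (8.28% in either direction). The median log2 fold change of the 8 enzymes was 0.65, against -0.14 over all genes.

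In carcinoma, the same 2 enzymes and Ldha were higher than in WT, and Fbp1 was again lower. Pkm rose 3.50-fold (log2 1.81 ± 0.41, adjusted p = 0.00869), Ldha 1.95-fold (0.96 ± 0.29, adjusted p = 0.0426) and Pgam1 1.84-fold (0.88 ± 0.26, adjusted p = 0.0435). Fbp1 fell 11.3-fold (-3.50 ± 0.30, adjusted p = 3.15e-07), rank 13 by p-value. Of the 8 enzymes, 3 rose and 0 fell, where 4.16% of all genes were called higher and 4.9% lower (9.05% in either direction). Their median was 0.44, against -0.14 over all genes. Both comparisons use the same 6 WT arrays, so they are not separate evidence.

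**Figure D1:**
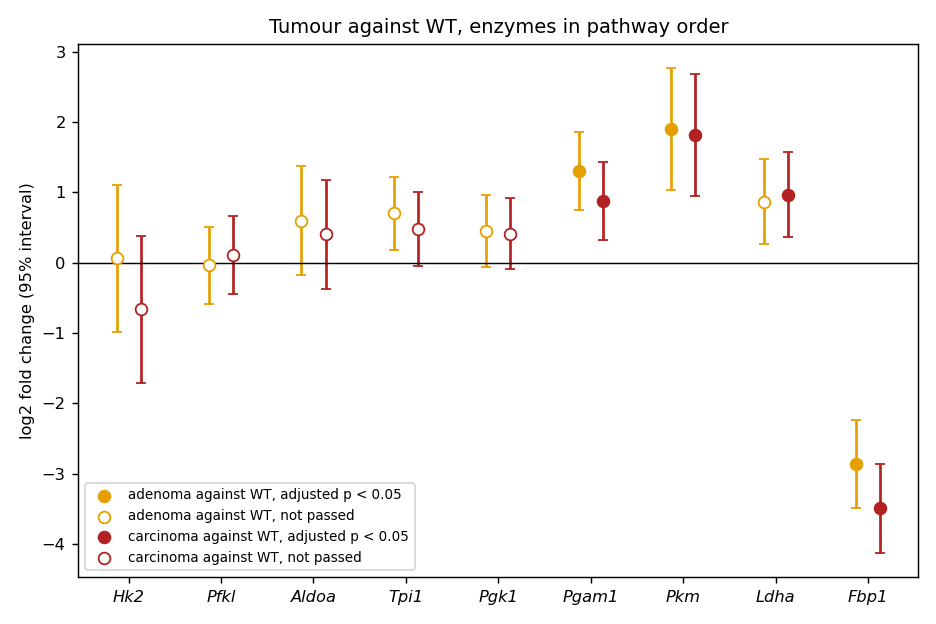
Log2 fold change (vertical axis) of 9 genes in pathway order (horizontal axis) in adenoma and in carcinoma, each against WT, with bars for the 95% interval and filled points for an adjusted p under 0.05. The glycolytic enzymes lie between -0.67 for Hk2 in carcinoma and 1.90 for Pkm in adenoma, and Fbp1 stands apart at -2.86 and -3.50.

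Fbp1 separated the groups by the widest margin of the 9 genes. Its signals were 297.9, 155.3, 336.9, 219.5 and 148.0 in adenoma, and 224.1, 140.3, 95.4, 110.1 and 170.8 in carcinoma. In the 6 WT arrays the lowest was 1065, the median 1710.5 and the highest 2197. All 10 tumour arrays lay below all 6 WT arrays. The lowest WT signal was 3.16 times the highest in adenoma and 4.75 times the highest in carcinoma. Of all genes, 2.74% in adenoma and 3.15% in carcinoma lay below WT without overlap, by a margin of any size. No tumour array had Fbp1 at the floor, so the fall is measured and is not a bound. In captured tissue, fewer cells of a type and less RNA per cell cannot be told apart. The call held in all 31 other settings tried for each tumour.

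Pgam1, Pkm and Ldha were the enzymes that passed in at least 1 tumour. Pgam1 signals were 6169, 5863, 4817, 4595 and 5951 in adenoma and 5853, 3135, 4653, 3141 and 4164 in carcinoma. In WT the lowest was 1416, the median 2623 and the highest 2921. Every tumour array lay above every WT array, with a gap of 1.57-fold in adenoma and of 1.07-fold in carcinoma. Groups stood apart upward for 3.06% of all genes in adenoma and 3.13% in carcinoma. Within WT the Pgam1 signal fell into a lower pair (WT 4 and WT 5, at 1486 and 1416) and 4 arrays between 2517 and 2921.

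Pkm was measured by 2 probe sets. The brighter, 162032_f_at, is of a kind whose probes may match other members of a sequence family. It read 3009, 3867, 3549.5, 5442 and 2585 in adenoma, 1698, 2696, 2553, 8228 and 4442 in carcinoma, and in WT 425.1 at the lowest, 1141 at the median and 1849 at the highest. All 5 adenoma arrays and 4 of 5 carcinoma arrays lay above every WT array, carcinoma 1 being the exception. The other set, 96066_s_at, is of a kind whose probes are shared by several transcripts, of the same or of different genes. It read 1625, 1890.2, 1804, 1496 and 2596 in adenoma, 2094 at the median of carcinoma (1350.0 to 3874), and 577.2 at the median of WT (188.5 to 801.0). Both tumour groups lay wholly above WT on this set. In the fit of all 10563 probe sets it rose by 2.00 ± 0.38 in adenoma (adjusted p = 0.00228) and by 2.22 ± 0.38 in carcinoma (adjusted p = 0.000759). In that fit 3 of the 11 glycolytic probe sets were called higher in adenoma and 0 lower, where 3.53% of all probe sets were higher, 4.24% lower and 7.77% either. In carcinoma 4 of 11 were higher and 0 lower, where 3.67%, 5.01% and 8.68% of all were. Both Pkm sets thus gave the same direction at similar size. The splice forms M1 and M2 were not told apart here.

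Ldha signals were 12347, 10311, 11967, 8322 and 15350.1 in adenoma and 16329, 12696, 11588, 9224 and 12306 in carcinoma. In WT they were 3233 at the lowest, 6056 at the median and 9865 at the highest. In each tumour 4 of 5 arrays lay above every WT array, and adenoma 4 and carcinoma 4 were the exceptions. Ldha rose in carcinoma as given above. In adenoma its log2 fold change was 0.87 ± 0.29 and did not pass (adjusted p = 0.0726), so the tumours lie on either side of the threshold at nearly the same value, and the difference between them was 0.10 (95% interval -0.53 to 0.73).

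**Figure D2:**
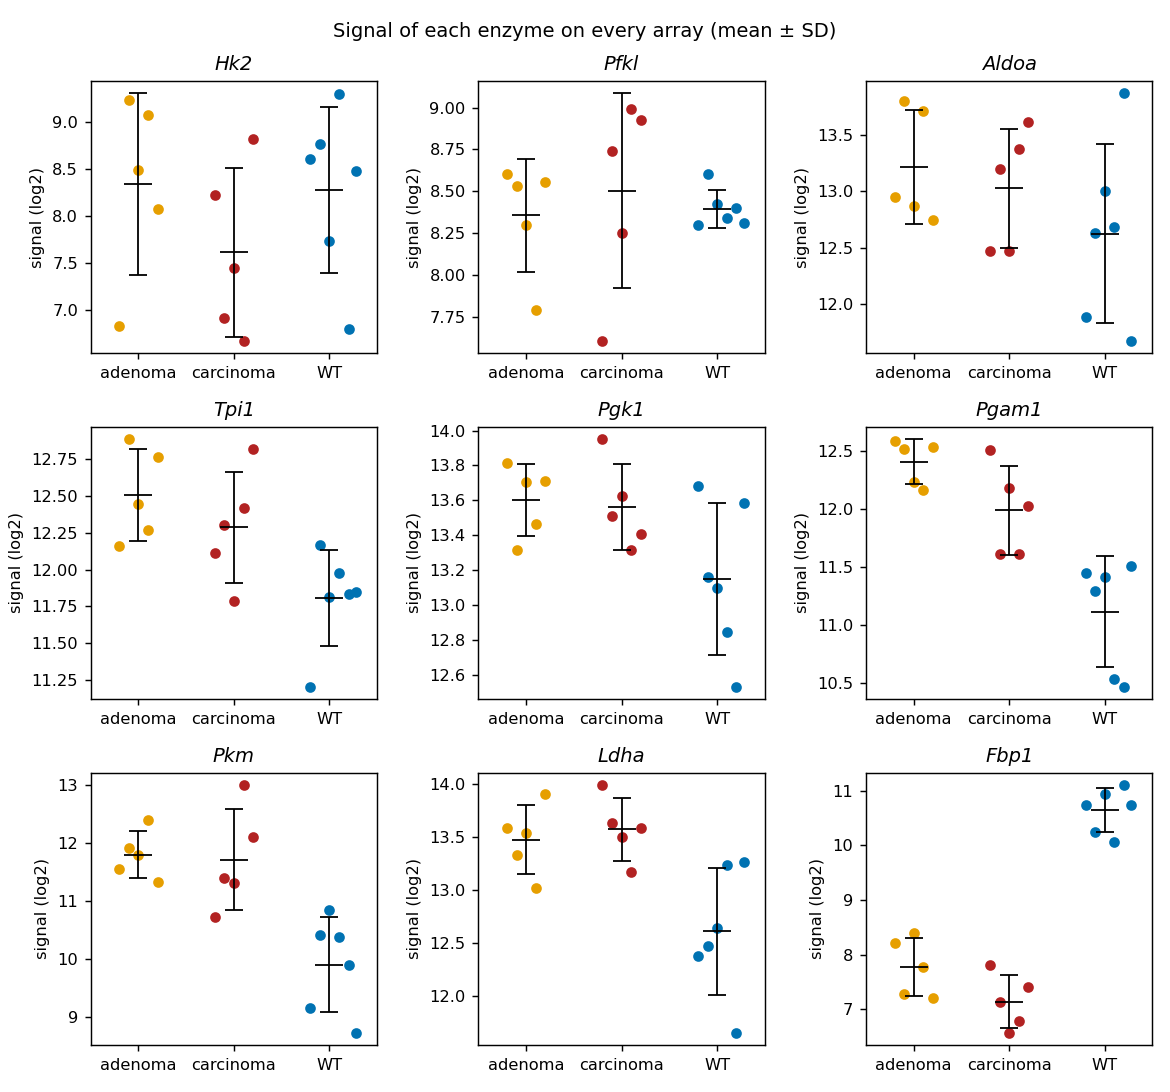
Log2 signal (vertical axes, a scale of its own for each gene) of 9 genes on every array of adenoma, carcinoma and WT, with the mean ± SD as bars. Fbp1 lies between 95.4 and 336.9 on the linear scale in the tumours and at 1065 or above in WT, and Pgam1 shows a gap in the other direction.

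The remaining enzymes passed in neither tumour as fitted. Pgk1 read 14423, 10189.9, 13349, 11305 and 13389 in adenoma, 15831.5, 11666, 12644, 10178 and 10859.6 in carcinoma, and 5926, 8965 and 13126 as lowest, median and highest in WT. Its tumour arrays lay in the upper part of the WT range or above it, with 3 adenoma arrays and 1 carcinoma array above every WT array. The fold changes were 0.45 ± 0.24 (adjusted p = 0.281) and 0.41 ± 0.24 (0.313). Tpi1 read 4576, 7571, 5591, 4942 and 6963 in adenoma, 4422, 5042, 3535, 5472 and 7214 in carcinoma, and 2359, 3672 and 4599 as lowest, median and highest in WT. Above every WT array were 4 adenoma and 3 carcinoma arrays. Its fold changes were 0.70 ± 0.25 (adjusted p = 0.0940) and 0.48 ± 0.25 (0.248).

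For the earlier steps the values did not separate the groups. Aldoa (161889_f_at) read 6854 to 14325 in adenoma, 5677 to 12550.0 in carcinoma and 3257 to 14997 in WT, so the WT range enclosed both tumours. The fold changes were 0.60 ± 0.37 (adjusted p = 0.355) and 0.40 ± 0.37 (0.536), and its second set, 160090_f_at, gave 0.56 ± 0.39 and 0.25 ± 0.39. Both Aldoa sets are of the kind whose probes may match other members of a sequence family. Pfkl read 221.1 to 389.7 in adenoma, 194.9 to 509.8 in carcinoma and 314.6 to 388.7 in WT, with a spread in log2 of 0.34, 0.58 and 0.11 (SD). Its fold changes, -0.04 ± 0.26 and 0.11 ± 0.26, had adjusted p = 0.946 and 0.829. Hk2 (94375_at) read 113.7 to 605.0 in adenoma, 101.9 to 454.1 in carcinoma and 111.3 to 630.0 in WT, with fold changes of 0.06 ± 0.50 and -0.67 ± 0.50 (adjusted p = 0.958 and 0.435). The 95% interval for Hk2 in adenoma, -0.98 to 1.10, includes a change of the size seen for Pgam1 in carcinoma. The dimmer Hk2 set, 161313_at, was at the floor on 3 of 5 adenoma, 5 of 5 carcinoma and 3 of 6 WT arrays.

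These calls were sensitive to the control measures and to the arrays fitted. In adenoma, neither enzyme passed with the Gapdh ratio as a covariate (Pgam1 1.47 ± 0.47, adjusted p = 0.208, and Pkm 2.58 ± 0.70, 0.115). Their standard errors were 0.26 and 0.41 as reported. The Gapdh ratio itself differed between tumours and WT, so that fit cannot separate it from the group. With WT 1, 2, 4 and 5 left out, which left WT 3 and WT 6, neither passed (0.95 ± 0.30, 0.136, and 2.01 ± 0.60, 0.108). Pgam1 did not pass with the spike-in level as a covariate (0.98 ± 0.32, 0.0877). Over the 31 settings the adjusted p ran between 0.00146 and 0.208 for Pgam1 and between 0.000602 and 0.115 for Pkm. The Pkm difference was larger in the fits in which it did not pass. With array medians aligned, which moved the median of all genes to 0.12, 4 enzymes passed in adenoma, Tpi1 (0.99, adjusted p = 0.0167) and Ldha (1.16, 0.0406) being added. In carcinoma 4 passed then as well, with Tpi1 added (0.80, 0.0462). Over the 31 settings the adjusted p of Tpi1 ran between 0.0167 and 0.905 in adenoma and between 0.0462 and 0.97 in carcinoma. Ldha passed in adenoma in 6 of the 31 settings: with medians aligned, with the floor at the 40th percentile (adjusted p = 0.0482), with array weights (0.0279), with a variance trend and robust fit (0.0487), and without WT 4 (0.0472) or WT 6 (0.0394), within 0.0279 to 0.765 overall. In carcinoma, Pkm failed in 2 of the 31 settings, the Gapdh covariate (2.43, adjusted p = 0.0851) and the fit without those 4 WT arrays (1.92, 0.123). Ldha and Pgam1 each failed in 17, with adjusted p between 0.0207 and 0.627 and between 0.018 and 0.519. The carcinoma difference was smaller in some of these: with the spike-in level as a covariate Ldha had 0.40 and Pgam1 0.56, without the 4 WT arrays they had 0.62 and 0.53, and with the Gapdh covariate Ldha had 0.67 and Pgam1 1.03. The count of 3 fell to 1 when any 1 of WT 2, WT 5, adenoma 1, adenoma 2, adenoma 3, carcinoma 1, carcinoma 3 and carcinoma 5 was left out. Leaving out 1 array at a time, 10 of 16 arrays ended the carcinoma call of Pgam1 and 11 that of Ldha, with values over all 16 of 0.75 to 0.97 and 0.77 to 1.10. Besides those 8 they were WT 4 and adenoma 5 for Pgam1 and WT 1, WT 3 and carcinoma 2 for Ldha.

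**Figure D3:**
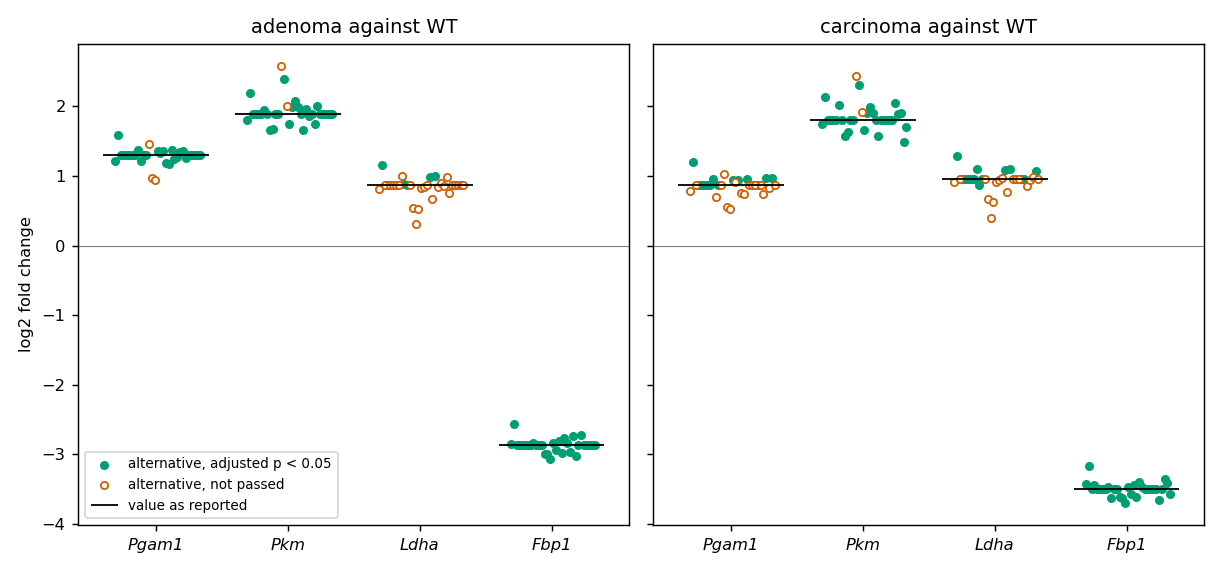
Log2 fold change (vertical axis) of the 4 genes that passed in at least 1 tumour, under each of 31 other settings, with filled points where the adjusted p was under 0.05, open points where it was not, and a line at the value as reported. Fbp1 passed in every setting, and in carcinoma the open points reach down to 0.40 for Ldha and 0.53 for Pgam1.

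Between carcinoma and adenoma no member passed. Of the 9 genes 0 were called, with an adjusted p of 1 for each, and 0.0268% of all genes were (2 genes, both lower, with 185 of 7455 at an unadjusted p under 0.05). Of the 12 probe sets 0 were called, against 0.00947% of all probe sets higher, 0.0284% lower and 0.0379% either. Fbp1 had the smallest p of the 9. Its log2 fold change was -0.63 ± 0.31 with a 95% interval of -1.29 to 0.02, and 3 of 5 carcinoma arrays (95.4, 110.1 and 140.3) lay below the lowest adenoma array (148.0). For Pgam1 the difference was -0.42 ± 0.28 (-0.996 to 0.16), and 3 of 5 carcinoma arrays lay below the lowest adenoma array. The difference for Pkm was -0.09 ± 0.43 with an interval of -0.99 to 0.82. For the other 6 genes the difference ran between -0.73 for Hk2 (-1.81 to 0.36) and 0.15 for Pfkl (-0.43 to 0.72). Carcinoma and adenoma overlapped for all 9 genes, where 0.161% of all genes stood apart upward and 0.376% downward.

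Set side by side, the mean of the glycolytic enzymes lay above its WT level and Fbp1 below its own on all 10 tumour arrays. The mean log2 difference of the 8 glycolytic enzymes from their WT mean was 0.53 to 0.96 in adenoma, 0.34 to 0.93 in carcinoma and -0.30 to 0.20 in WT. For Fbp1 the same difference was -3.43 to -2.24 in adenoma, -4.06 to -2.83 in carcinoma and -0.58 to 0.46 in WT. On adenoma arrays 7 or 8 of the 8 enzymes lay above their WT mean, on carcinoma arrays 4 to 8 and on WT arrays 3 to 7, so these counts overlapped. Among the tumours, carcinoma 3 had both the smallest enzyme mean (0.34) and the lowest Fbp1 (-4.06). On that array Pkm, Pgam1, Ldha and Pgk1 had 1.41, 1.07, 0.89 and 0.48. Tpi1, Pfkl, Aldoa and Hk2 had -0.02, -0.14, -0.15 and -0.84, so the mean does not stand for every enzyme. These are descriptions of genes already compared above, with no test of their own.

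**Figure D4:**
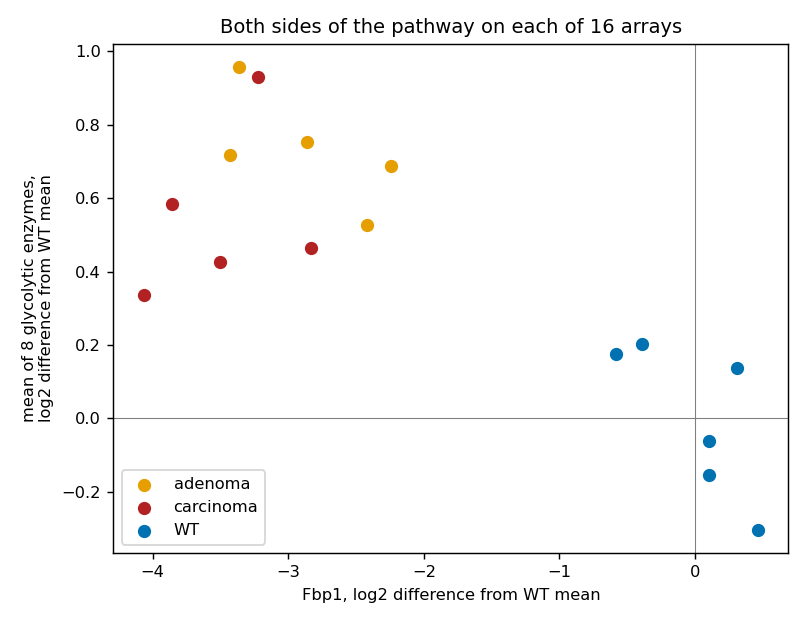
Mean log2 difference of 8 glycolytic enzymes from WT (vertical axis) against the log2 difference of Fbp1 from WT (horizontal axis) on each of 16 arrays. The 10 tumour arrays lie at the upper left, with enzyme means of 0.34 or more and Fbp1 at -2.24 or less, and the 6 WT arrays lie around 0.

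Within groups the enzymes did not vary as one block. With group means removed, Aldoa and Pgk1 varied in opposite directions over the 16 arrays (Pearson r = -0.91). Pgk1 went with Pgam1 (r = 0.79), and Aldoa with Pkm (r = 0.67). In WT, for example, Aldoa read 14997 on WT 5 against 3776 on WT 1 and 3257 on WT 6, and Pgk1 read 5926, 13126 and 12268 on the same arrays. The 3′ signal of Gapdh went with Aldoa (r = 0.86) and against Pgk1 (r = -0.86), and was 14508, 3905 and 5064 on these 3 arrays. The spike-in signal had r = 0.60 with Aldoa, -0.48 with Pgk1 and -0.68 with Ldha. Its part, like that of the array scaling shared by all genes, was not tested. This pattern was picked out after its values were seen, from 36 pairs of members, and has no p-value. Aldoa was read here by 161889_f_at, of the kind that may match a sequence family. The 3′ signal of Gapdh was itself higher in adenoma (14.24 ± 0.44 against 12.73 ± 0.68 in WT on the log2 scale, exact permutation p = 0.00649, or 0.0195 after adjustment for 3 pairs) and in carcinoma (14.10 ± 0.66, exact p = 0.013, adjusted 0.0195; SD, n = 5, 5 and 6). Its 5′ signal differed from WT by 0.21 and 0.19, within the spread between arrays (exact p = 0.517 and 0.662).

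**Figure D5:**
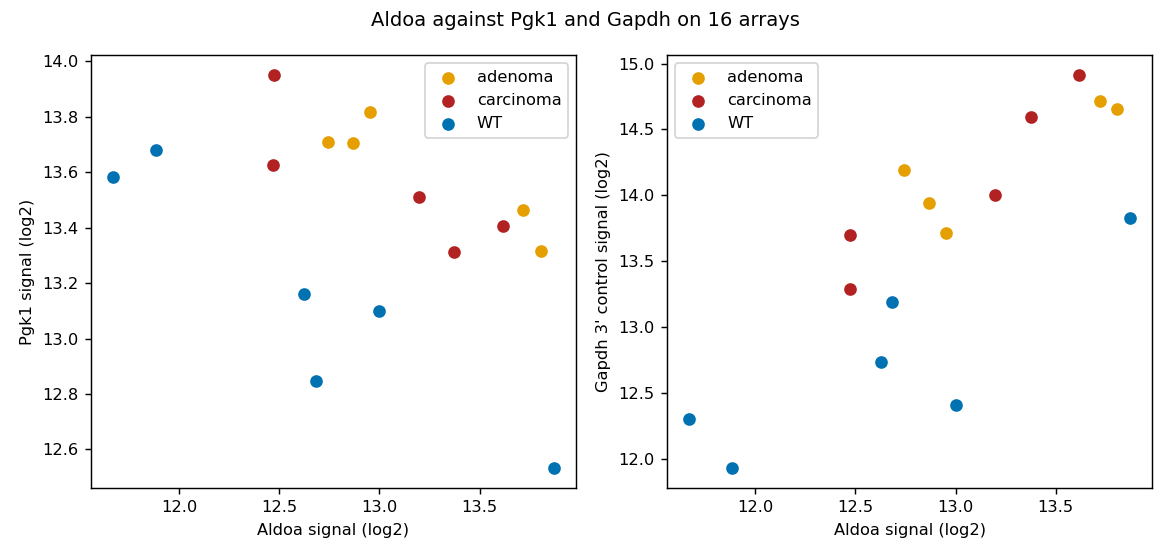
Log2 signal of Pgk1 (left) and of the Gapdh 3′ control (right) on the vertical axes against the log2 signal of Aldoa (horizontal axes) on the 16 arrays, coloured by group. Within each group Pgk1 is lower and Gapdh higher where Aldoa is high, with r = -0.91 and 0.86 once group means are removed.

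Of 9 further isoenzymes of glycolysis that were tested (Hk1, Pfkm, Pfkp, Aldoc, Bpgm, Eno2, Eno3, Pklr and Ldhb), 0 were higher in either tumour. Of all genes tested 4.02% were called higher in adenoma and 4.16% in carcinoma, so 0 of 9 is near that share. Eno2, the neuronal enolase, fell in adenoma (-1.21 ± 0.35, adjusted p = 0.0395) and had -0.94 ± 0.35 in carcinoma (adjusted p = 0.104). The medians were -0.175 in adenoma and -0.12 in carcinoma, against -0.14 over all genes in both. Among 7 other genes of gluconeogenesis, 1 fell in each tumour, where 4.25% of all genes fell in adenoma and 4.9% in carcinoma. It was Pck2, the mitochondrial phosphoenolpyruvate carboxykinase (-0.75 ± 0.22, adjusted p = 0.0402, in adenoma and -0.95 ± 0.22, 0.00867, in carcinoma). The cytosolic form Pck1 had -0.25 ± 0.37 and -0.62 ± 0.37, glucose-6-phosphatase (G6pc) -0.64 ± 0.35 and -0.98 ± 0.35, and the muscle-type Fbp2 -0.74 ± 0.47 and -0.82 ± 0.47, none of which passed. Pcx had -0.45 ± 0.42 and -0.14 ± 0.42 and did not pass either. For G6pc3 the values were 0.08 ± 0.24 and 0.14 ± 0.24, and for Slc37a4 -0.13 ± 0.25 and -0.08 ± 0.25, without a call. Fbp1 was thus the gene of this route with the largest difference among the 8 tested.

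Genes of sugar and lactate transport went both ways, with 1 of 8 higher and 2 lower in each tumour. Of all genes, 4.02% were called higher and 4.25% lower in adenoma, and 4.16% and 4.9% in carcinoma. Slc2a1, the general glucose transporter GLUT1, rose in adenoma (1.52 ± 0.46, adjusted p = 0.0458) and in carcinoma (1.65 ± 0.46, 0.0282). Its signal was 78.0 to 251.2 in adenoma, 47.2 to 406.5 in carcinoma and 21.2 to 94.0 in WT, where 3 of 6 arrays were at the floor. Slc5a1, the sodium-coupled glucose transporter of the brush border, fell in adenoma (-1.95 ± 0.45, adjusted p = 0.0104) and in carcinoma (-2.52 ± 0.45, 0.00117). Slc2a5, the fructose transporter, fell too (-1.61 ± 0.37, 0.0101, and -1.82 ± 0.37, 0.00354), and was at the floor on 3 of 5 arrays of each tumour. Among 12 regulators of glycolysis and the hypoxia response, 3 rose in each tumour and 0 fell, beside the same shares of all genes. Besides Slc2a1 they were Hif1a, the oxygen-regulated subunit of hypoxia-inducible factor (2.98 ± 0.44, adjusted p = 0.000254, in adenoma and 3.06 ± 0.44, 0.000142, in carcinoma), and Ddit4, a stress-induced inhibitor of mTORC1 (1.65 ± 0.33, 0.00366, and 1.42 ± 0.33, 0.0108). Hif1a read 6701 to 13547 in adenoma, 5029 to 20485 in carcinoma and 442.4 to 2326 in WT, without overlap, on a probe set of the kind that may match a sequence family. Vegfa and Bnip3, classical hypoxia targets, had 0.46 and 0.21 in adenoma and -0.24 and -0.55 in carcinoma and passed in neither. P4ha1, of the same list, had 1.004 ± 0.34 in adenoma (adjusted p = 0.0816) and 0.36 ± 0.34 in carcinoma and did not pass either. Vegfa, Bnip3 and P4ha1 were picked after their values were seen, and a hypoxia response was not tested. Myc had 0.95 ± 0.38 in adenoma (adjusted p = 0.139) and did not pass in carcinoma either (0.109).

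For neighbouring routes the calls stand beside 8.28% of all genes called in adenoma and 9.05% in carcinoma. At such shares lists this short hold few calls, so their number is no result about these routes. Of 9 genes of glycogen and side branches, Psat1 of serine synthesis rose in carcinoma (1.12 ± 0.26, adjusted p = 0.0089) and 0 passed in adenoma. Galt, of galactose breakdown, fell in carcinoma (-1.47 ± 0.34, adjusted p = 0.0099) and had -1.10 ± 0.34 in adenoma (0.0543). Neither the 6 genes of the pentose phosphate pathway, nor 7 of pyruvate dehydrogenase and its kinases, nor 2 of the bifunctional regulators that make and break fructose-2,6-bisphosphate held a call in either tumour. The adenoma calls of Slc2a1, Pck2 and Eno2 were each lost in about as many settings as not (16, 16 and 15 of 31). With 1 array left out, Slc2a1 had 1.35 to 1.77, Pck2 -0.86 to -0.66 and Eno2 -1.41 to -1.04. Slc2a1 was lost in adenoma without any 1 of WT 1, 2, 3, 5 and 6, adenoma 1, 2, 4 and 5 and carcinoma 2 and 3, and in carcinoma without WT 1, carcinoma 4 or carcinoma 5. Pck2 was lost without any 1 of WT 1, 2 and 3, adenoma 1, 2, 3 and 5 and carcinoma 2 and 3, and Eno2 without any 1 of WT 2, 4 and 5 and adenoma 1, 2, 4 and 5. Slc2a1 was 0.59 in adenoma and 0.86 in carcinoma with the floor at the 40th percentile, and Pck2 was -0.30 and -0.45 with the mean of its probe sets, and neither passed then. With the Gapdh covariate every pathway call named here was lost except those of Hif1a, which passed in all 31 settings for both tumours. In that fit Slc5a1 had -0.78 in adenoma and -1.45 in carcinoma, its only loss, and Ddit4 had 1.13 and 0.94. Ddit4 was also lost in both tumours with the spike-in covariate and without the 4 WT arrays, as was Slc2a5 (-1.01 and -1.04 in adenoma, -1.22 and -1.25 in carcinoma), and in adenoma Slc2a5 was further lost with the floor at the 40th percentile (-0.76). The carcinoma calls of Psat1, Galt and Pck2 were lost in 3, 5 and 5 settings, with adjusted p up to 0.435, 0.125 and 0.218, and Galt had -0.68 with the mean of its probe sets.

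Several markers of absorptive enterocytes, a cell type that makes Fbp1, were lower in the tumours. Of 11 tested, 5 fell in adenoma and 7 in carcinoma, and none rose, where 4.25% and 4.9% of all genes were called lower. The summed signal of these 11 markers was 3404 to 46159 in adenoma, 1924 to 6103 in carcinoma and 16082 to 88236 in WT. This sum follows its brightest genes, and the genes differed: in adenoma Enpep, a brush border peptidase, fell (-3.36 ± 0.62, adjusted p = 0.0018), while the lipid carriers Fabp1 and Apoa4 had 0.94 ± 1.46 and 0.69 ± 1.24 and did not pass. Markers of other cell types differed as well, where 4.02% of all genes were called higher in adenoma and 4.16% in carcinoma. Of goblet and enteroendocrine markers, 3 of 5 and 4 of 8 fell in each tumour. Of 7 markers of T, B and plasma cells 3 fell in adenoma and 2 in carcinoma, and both measured Paneth markers rose in each. In smooth muscle 2 of 8 fell in each tumour and 1 rose in adenoma, and in fibroblasts 1 of 8 rose in adenoma and 3 in carcinoma. Of endothelial markers Cdh5 rose in adenoma (1 of 6), of cell cycle genes Pcna rose in carcinoma (1 of 7), and of 3 erythrocyte markers 0 passed. Their part in the Fbp1 and Pkm results was not tested. Macrophage and neutrophil markers, of cells that use much glucose, held 0 calls among 8 tested, with Itgam at the floor on all 16 arrays and sums of 4041 to 11297 in adenoma, 6227 to 14253 in carcinoma and 3271 to 17967 in WT.

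Over all 16 arrays, the genes whose log2 signal was most like that of Fbp1 were Otc (Pearson r = 0.97), which encodes a urea cycle enzyme, Slc27a2 (0.97), a fatty acid transporter, Pipox (0.95), a peroxisomal oxidase, Gsdme (0.945), a gasdermin, and Usp2 (0.94), a deubiquitinase. With group means removed these were 0.50 to 0.66. Most like Pkm were Capg (0.93), an actin-capping protein, Cstb (0.89), a cathepsin inhibitor, Bpifb1 (0.87), Psapl1 (0.87) and Fxyd3 (0.87), with 0.56 to 0.83 within groups. Some of these genes had group means at or near the floor of log2 5.55. Slc27a2 had 5.55 in carcinoma and 5.86 in adenoma, Gsdme 5.89 and 5.74, and Bpifb1 5.67 in WT. Each r is over arrays that share a group difference and an array scaling, and is a description.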

How the data were processed

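The 16 arrays measured laser-captured mouse ileal epithelium. Groups came from the titles: adenoma (n = 5), carcinoma (n = 5) and WT (n = 6). The authors deposited probe set intensities on a linear scale for 12488 probe sets per array (software: not given in the sources used here). With 2% trimmed at each end, array means were 500.3 to 500.4, so no further scaling was applied; medians ran between 126.8 and 234.2. No 2 arrays held identical values.

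Values under the 25th percentile of all values (46.9, log2 5.55) were set to it and log2 was taken, so that fold changes of dim genes are understated. Tests excluded 66 control probe sets. Symbols were taken from GEO's platform annotation, updated through Entrez identifiers found for 10817 probe sets in a RefSeq gene table. A gene with several probe sets was represented by the one of highest mean, and genes above the floor on at least 5 arrays were kept. One limma model (version 3.58.1, R 4.3.3) held all 3 groups, with lmFit, eBayes, 13 residual degrees of freedom, two-sided tests and Benjamini-Hochberg adjustment at 0.05 over all genes of a comparison. A second fit took all probe sets. Control measures were tested one by one, by exact permutation (scipy 1.17.1). The fit was tested on simulated data with independent noise for each gene and array. Those data held no differences in scaling or control measures between arrays, so that run cannot speak to them. Plots used Python 3.11.15 and matplotlib 3.10.9. The number of arrays limits the precision.

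The genes, lists, tests and alternatives were chosen with earlier results of these data known. Named were all members, up to 4 called genes of each pathway list per comparison, Gapdh, and the 5 genes most like Fbp1 and Pkm. Other genes named beside a list (Pck1, G6pc, Fbp2, Pcx, G6pc3, Slc37a4, Vegfa, Bnip3, P4ha1 and Myc, the tested isoenzymes, and single markers) were chosen after their values were seen. Promoter windows came from RefSeq's table of assembly GRCm38.p6, in which all 9 measured genes were found. Alternatives were 15 other settings and each of the 16 arrays left out in turn.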

Additional observations from a re-analysis of the deposited data

Results flagged for a closer look

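Of 36 groups of arrays examined, 1 for each probe set and group, 2 held an array far from the others, judged by its gap to the nearest array over the range of the group on the log2 scale. Chance gives about 1 in 20 groups. Tpi1 on WT 1 (2359) lay below the other 5 WT arrays, which were 3608 to 4599, with a ratio of 0.6364 against a limit of 0.625. The dimmer Hk2 set, 161313_at, was highest on adenoma 4 (63.2), with a ratio of 0.8875 against a limit of 0.71. Of the other 4 adenoma arrays 3 were at the floor, so that range is made mostly of values set to one number.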

How the results depend on the processing

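Fbp1 kept its fall in all 31 settings for adenoma (-3.07 to -2.57, adjusted p between 6.37e-07 and 0.00736) and for carcinoma (-3.70 to -3.17, between 4.57e-08 and 0.000754), and no called member turned direction in any setting. The count of glycolytic enzymes higher in adenoma, 2 as reported, was 4 with array medians aligned, 1 with the spike-in covariate, and 0 with the Gapdh covariate and without WT 1, 2, 4 and 5. With single arrays left out it was 2 to 3. In carcinoma the count of 3 was 1 after quantile normalisation, with the floor at the 10th percentile, with only the 2 groups fitted and with the spike-in covariate, and 0 with the Gapdh covariate and without the same WT arrays; with medians aligned it was 4. With single arrays left out it was 1 to 3. The cause of these changes was not tested, although the last fit and those of 2 groups rest on fewer arrays. All genes called in adenoma, 617 as reported, were 70 with the Gapdh covariate, 398 with the spike-in covariate, 196 without those WT arrays and 384 without adenoma 5, and in carcinoma 675 were 100, 382 and 217 in the first 3 of these. Between carcinoma and adenoma they were 0 to 18, against 2. The split of calls changed with the setting. In adenoma 48.6% of calls were higher as deposited, 62.3% after quantile normalisation and 75.6% with medians aligned, and in carcinoma 45.9%, 58.7% and 73.6%. With the Gapdh covariate the share was 75.7% in adenoma and 58% in carcinoma. Without WT 1, 2, 4 and 5 it was 64.8% and 57.6%. The median of all genes was -0.14 in both as deposited and 0.12 and 0.15 with medians aligned. The deviations of same-numbered arrays from their group means had r between -0.27 and 0.40 over the pairs. Arrays of unlike number were not compared, so this cannot decide whether the numbers pair the samples. With the number as a replicate block, 2 and 3 enzymes were higher and Fbp1 had -2.84 and -3.48, and 728 and 842 genes were called, and WT 6, which has no partner, then carries no weight. The runs for the other pathway genes were added after seeing the data.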
